A study of Homo sapiens with 36 samples.

Results

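The comparison set cells that grew without serine and glycine against cells that stop dividing without them. Both descend from A2780 cis, the platinum-resistant derivative of the human ovarian cancer cell line A2780, obtained by chronic exposure to cisplatin. The members are 6 of the 36 RNA-sequencing libraries of the series, chosen by their labels alone: libraries 19, 20 and 21, labelled A2780 cis with treatment -SG, and libraries 31, 32 and 33, labelled A2780 cis with treatment SSP -SG. Neither group received carboplatin, and both were cultured in medium with dialyzed serum that lacked serine and glycine. In the study's account, cis cells arrest in this medium, and cis SSP is the proliferating population that grew out of them. cis SSP therefore stands for 1 line obtained from cis, and the groups differ in line as well as in growth, which cannot be told apart here. The 3 libraries of a condition are described as technical replicates, so the spread between them, and every p-value below, does not cover independent cultures. The labels state no time in the medium.

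Serine is made from the glycolytic intermediate 3-phosphoglycerate in a short chain of reactions catalysed by PHGDH, PSAT1 and PSPH, or taken up from outside by neutral amino acid carriers such as SLC1A4 and SLC1A5. Serine hydroxymethyltransferases split it into glycine and a one-carbon unit, which the folate cycle passes on to nucleotide synthesis and, through methionine, to methylation. Cells short of an amino acid raise translation of ATF4, a transcription factor that induces genes of amino acid synthesis, uptake and tRNA charging as well as stress regulators. Cells that leave the cell cycle lose the transcripts of DNA replication and mitosis, which the E2F factors and the DREAM and B-MYB-FOXM1 complexes control in dividing cells.

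Reads on genes numbered from 14858200 in library 32 to 20062084 in library 31. Library 32 stood apart from the other cis SSP -SG libraries by transcript length. Against the mean of libraries 31 and 33, its median deviation was 0.89 on the log2 scale for transcripts under 1 kb and -0.86 for transcripts over 8 kb, where the corresponding medians of the cis -SG libraries stayed between -0.07 and 0.04. The SD over genes of the log2 difference between libraries 31 and 33 was 0.110, and it was 0.683 between 31 and 32. Counts are therefore given with and without library 32, as are gene values that turn on it. Of the 128 genes named by the rule, all 116 that were called were called the same way without it. Genes named for the largest changes had to be, so for them this was fixed by the rule. Series of 3 values list libraries 19, 20 and 21, then 31, 32 and 33. Defining markers of the Müllerian epithelium were at or near 0 in both groups apart from WT1. PAX8 was at 0.0175 CPM (counts per gene relative to library depth, after TMM scaling) in cis -SG and 0.0897 in cis SSP -SG. MUC16 was at 0 in cis -SG. WT1, at 1.21 and 0.491 CPM, was the 1 marker of the list that was tested. It was called lower, with a log2 fold change of -1.35, and -1.79 without library 32. Of leukocyte markers, PTPRC and CD3E were at 0 in both groups.

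A large part of the transcriptome separated the groups. Of 14342 genes tested by edgeR's quasi-likelihood test, 6421 (44.8%) passed an adjusted p of 0.05, the threshold for every call below. Of these, 3098 (21.6% of genes tested) were higher and 3323 (23.2%) lower in cis SSP -SG. Without library 32, 11125 of 14732 genes (75.5%) were called, 5451 higher (37%) and 5674 lower (38.5%). These shares, with and without library 32, are the background for every count of list members below. Leaving out library 19, 20 or 21 instead gave 4011, 4146 and 4110 calls. Of the 6421 genes, 6397 were called the same way without library 32 and 0 the other way. The CPM of the groups did not overlap for 9107 of the genes tested (63.5%) and for 6416 of the 6421 called. A lack of overlap, where given below, is thus common to most genes. The median change over all genes tested was -0.01 on the log2 scale, and the median size of a called change was 0.96. Calls of at least 4 on the log2 scale were mostly lower, 175 against 50 higher. In such bulk libraries, fewer cells with a transcript and less transcript per cell cannot be told apart.

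**Figure D1:**
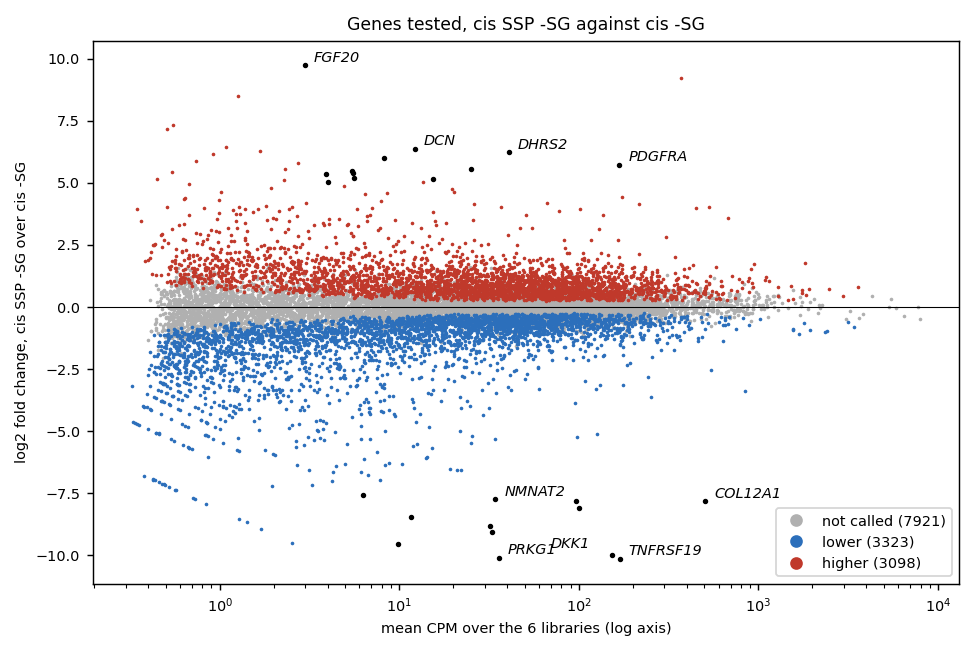
Log2 fold change of cis SSP -SG over cis -SG (vertical axis) against mean CPM over the 6 libraries (horizontal log axis) for the 14342 genes tested, red for higher, blue for lower and grey for not called. Black points are the 12 protein-coding genes with the largest change in each direction, 9 of them named, and the largest decreases reach about -10 at levels of 100 CPM and more.

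Of the serine synthesis enzymes, PHGDH and PSAT1 were higher in cis SSP -SG. PHGDH, which oxidises 3-phosphoglycerate and lies at chr1:120191034-120286841 of GRCh37, was at 203, 210 and 211 CPM in cis -SG and at 544, 780 and 531 CPM in cis SSP -SG. The groups did not overlap, and library 32 was the highest. The log2 fold change was 1.56 ± 0.17 (SE), adjusted p = 0.00097, and 1.36 ± 0.03 without library 32. PSAT1, the transaminase of the next step at chr9:80912041-80945009, was at 751, 765 and 730 CPM against 1569, 1554 and 1541 CPM. Its libraries within a group lay close together, and library 32 lay between the other cis SSP -SG libraries. The log2 fold change was 1.05 ± 0.09, adjusted p = 0.00036, and 1.05 ± 0.02 without library 32. PSPH, the phosphatase that releases serine, was at 111, 113 and 109 CPM in cis -SG and at 126, 149 and 125 CPM in cis SSP -SG. Its groups did not overlap either, but the log2 difference of 0.26 ± 0.10 was not called (adjusted p = 0.086) and became a call only without library 32 (0.18 ± 0.04, adjusted p = 1.62e-05). With all libraries 2 of the 3 enzymes were called higher, and 3 of 3 without library 32.

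The levels in complete medium place these differences. PSAT1 was at 733 CPM in cis and 646 CPM in cis SSP with serine and glycine present, below its 749 CPM in cis -SG and far below its 1554 CPM in cis SSP -SG. PHGDH was at 153 CPM in cis and 313 CPM in cis SSP in complete medium, with 391 CPM in library 25 and 268 and 279 CPM in libraries 26 and 27. The log2 fold change between lines with serine and glycine present was 1.06 (adjusted p = 0.0046). The cis SSP line had by then already grown out without them. The difference between media in the change from cis to cis SSP, an interaction of line and medium, was called for 2533 of 14806 genes (17.1%). Of these, 1015 had a positive and 1518 a negative difference. With library totals in place of TMM factors the split was 768 and 1918. Without libraries 25 and 32, 8341 of 15057 genes were called. Library 25, of cis SSP in complete medium, stood apart from libraries 26 and 27. Ribosomal proteins took 7.78% of its reads against 4.36% and 4.34%. Leaving it out raised the calls between lines in complete medium from 3990 to 9262. The values of cis SSP in complete medium given here include library 25. The difference between media was called for PSAT1 (1.21, adjusted p = 5.68e-05) and not for PHGDH (0.51 ± 0.26, adjusted p = 0.22). Without libraries 25 and 32 the difference was called for PHGDH too (adjusted p = 3.83e-13), so its call turns on these libraries.

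Of the carriers, SLC1A5, which exchanges neutral amino acids, was at 446, 466 and 447 CPM in cis -SG and at 592, 647 and 593 CPM in cis SSP -SG, a log2 fold change of 0.42 ± 0.09 with adjusted p = 0.012. The SLC1A5 call was lost, at a like size of 0.41 to 0.44, when library 19, 20 or 21 was left out. SLC1A4, which carries serine itself, was at 168, 173 and 175 CPM against 157, 122 and 148 CPM. This lower level was not called with all libraries (-0.28 ± 0.12, adjusted p = 0.10) and was called without library 32 at -0.18 ± 0.03. With the trend over transcript length removed, SLC1A4 had 0.02 (adjusted p = 0.83), and 0.0087 (adjusted p = 0.82) with library 32 left out as well, so no direction is given for it. SFXN1, the mitochondrial serine carrier, was higher by 0.42 ± 0.09. In all, 2 of 11 amino acid transporters tested were higher and 0 lower (0 also at an unadjusted p under 0.05 and by DESeq2), and 6 higher and 4 lower without library 32. Without library 19, 20 or 21, 0 transporters were called higher.

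**Figure D2:**
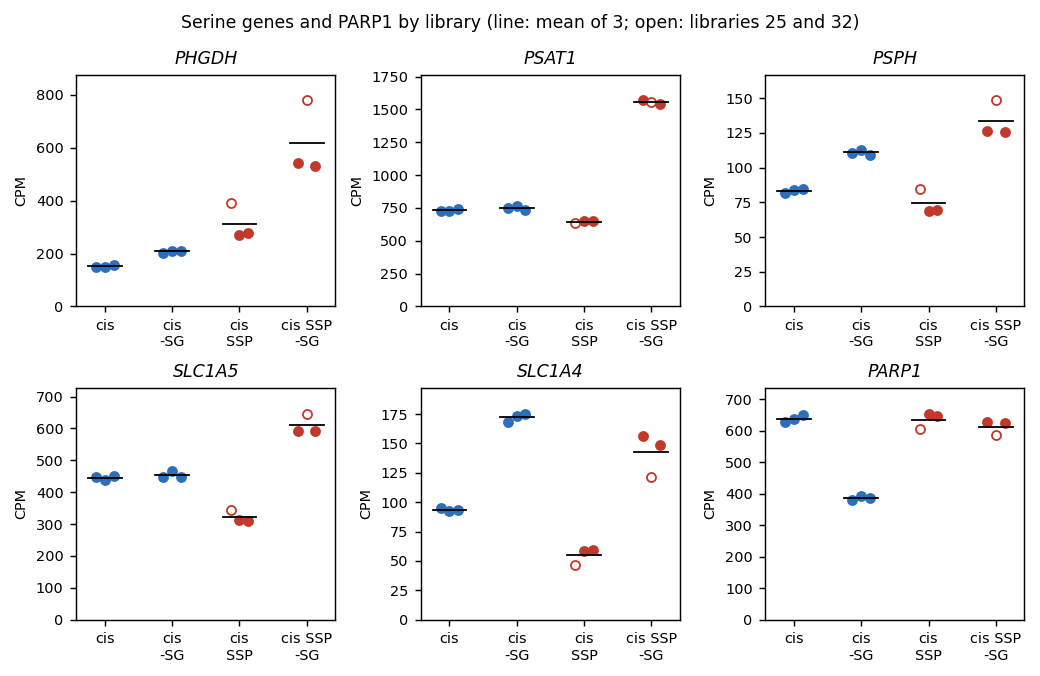
CPM in each library (points) and group mean (line) for the serine synthesis enzymes, the carriers SLC1A5 and SLC1A4, and PARP1 in cis, cis -SG, cis SSP and cis SSP -SG, with libraries 25 and 32 as open points. PHGDH and PSAT1 are above all cis -SG points in every cis SSP -SG library, and of the 4 groups PSAT1 is above 1500 CPM in cis SSP -SG alone.

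PHGDH did not stand alone on its chromosome arm. Of 54 other protein-coding genes of at least 1 CPM within 10 Mb, nearly all on the same side of PHGDH, 38 were higher and 5 lower in cis SSP -SG, with a median log2 fold change of 0.90. On the rest of chromosome 1, 283 of 1125 genes were higher and 260 lower, with a median of 0.03. Without library 32 the region held 44 higher and 7 lower genes and a median of 0.92. In complete medium, in libraries that share no sample with this comparison, the median of cis SSP over cis in the region was 0.85, and 51 of 54 genes had positive values. NRAS, the RAS-family GTPase, was higher by 1.38 ± 0.11, and WARS2, the mitochondrial tryptophanyl-tRNA synthetase, by 0.99 ± 0.10. OLFML3, a secreted olfactomedin-like protein, had the largest increase there, 5.58 ± 0.30. NRAS was named after its values were seen, as were FGF21 and ACTA2 below. DNA copy number was not measured here.

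**Figure D3:**
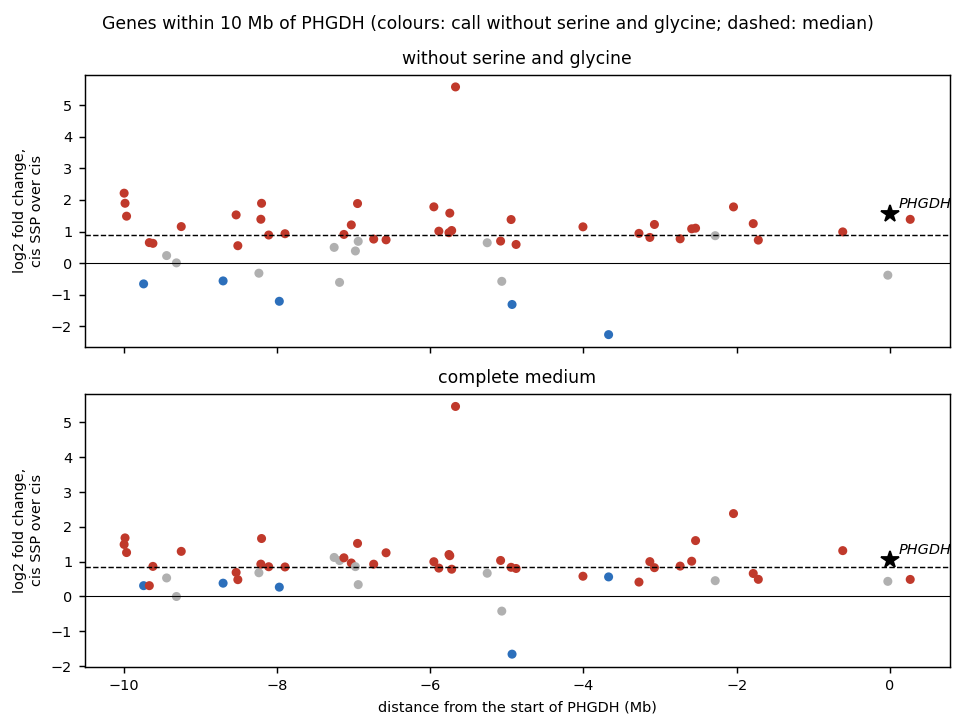
Log2 fold change of cis SSP over cis without serine and glycine (upper panel) and in complete medium (lower panel) for 54 protein-coding genes against distance from the start of PHGDH in Mb. Colours give the call without serine and glycine, the dashed lines the medians of 0.90 and 0.85, and the star PHGDH.

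Genes that move the one-carbon unit went in both directions. Of 17 folate one-carbon genes tested, 7 were higher and 3 lower, and 10 higher and 6 lower without library 32. The shares over all genes tested were 21.6% higher and 23.2% lower, and 37% and 38.5% without library 32. SHMT2, the mitochondrial serine hydroxymethyltransferase, was at 235, 235 and 241 CPM against 407, 514 and 408 CPM, with no overlap and a log2 fold change of 0.89 ± 0.12 (adjusted p = 0.0022). SHMT1, its cytosolic counterpart, was higher by 1.02 ± 0.12, and TYMS, which uses the one-carbon unit to make thymidylate, by 1.12 ± 0.20. MTHFD2, the next mitochondrial enzyme, was at 459 to 467 CPM in cis -SG and 554 to 562 CPM in cis SSP -SG. The groups did not overlap, and the difference of 0.26 ± 0.09 fell just short of a call (adjusted p = 0.050) and passed without library 32. GLDC, the decarboxylase of the glycine cleavage system, was lower by -0.79 ± 0.10, and MTHFD1L, which releases mitochondrial formate, by -0.55 ± 0.10.

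In the methionine cycle and transsulfuration, 1 of 11 genes was higher and 4 lower. CTH, which makes cysteine from cystathionine, was at 42.0, 38.4 and 39.3 CPM in cis -SG and at 6.58, 9.45 and 6.35 CPM in cis SSP -SG. Every cis SSP -SG library was far below the lowest cis -SG library, and the log2 fold change was -2.43 ± 0.17 (adjusted p = 0.00022). AHCY, which clears S-adenosylhomocysteine, was lower by -0.74 ± 0.12, and MAT2A, which makes the methyl donor, by -0.62 ± 0.16, while CBS, the enzyme before CTH, had -0.09 ± 0.09 and no call. The list counted 4 higher and 7 lower without library 32.

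ATF4 targets moved in both directions. Of 19 tested, 5 were higher and 9 lower, with a median of -0.45, and without library 32 they were 7 and 11 with a median of -0.63. Among all genes tested, 21.6% were higher and 23.2% lower, and 37% and 38.5% without library 32. The higher members were PCK2, FGF21, INHBE, VLDLR and NUPR1. PCK2, the mitochondrial phosphoenolpyruvate carboxykinase, was at 200, 202 and 206 CPM against 573, 808 and 589 CPM, a log2 fold change of 1.69 ± 0.16. INHBE, an inhibin beta subunit, was higher by 1.82 ± 0.10. The lower members were led by regulators of stress and death. ATF3, a stress-induced repressor, was at 77.2, 76.6 and 76.6 CPM in cis -SG and at 7.44, 6.23 and 8.75 CPM in cis SSP -SG (-3.36 ± 0.15, adjusted p = 5.2e-05). GDF15, a secreted stress cytokine, was lower by -3.14 ± 0.29. DDIT3, the transcription factor CHOP, was lower by -2.47 ± 0.19, and PPP1R15A, which directs dephosphorylation of eIF2 alpha, by -2.14 ± 0.14.

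ATF4 itself was at 529, 538 and 522 CPM in cis -SG and at 378, 585 and 374 CPM in cis SSP -SG. Library 32 was above all cis -SG libraries while 31 and 33 were below them, so the log2 difference was -0.26 ± 0.19 (adjusted p = 0.32) with all libraries and -0.50 ± 0.03 without library 32 (adjusted p = 1.59e-22). ASNS, asparagine synthetase and a classical ATF4 target, was at 314, 318 and 325 CPM against 379, 506 and 378 CPM. It was not called (0.39 ± 0.14, adjusted p = 0.064), and its groups did not overlap, as held for 63.5% of genes tested. Summed over the list, the ATF4 targets stood at 3207, 3309 and 3244 CPM in cis -SG (mean 3253). In cis SSP -SG they stood at 2493, 3466 and 2544 CPM (mean 2834). Library 32 lay above every cis -SG library, and libraries 31 and 33 lay below them. In complete medium the sums were 1342 CPM in cis and 1174 CPM in cis SSP.

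Cytosolic aminoacyl-tRNA synthetases, which load tRNAs with amino acids and of which several are ATF4 targets, had 7 of 20 members lower and 2 higher, with a median of -0.14. With the trend over transcript length removed there were 5 lower and 4 higher with a median of 0.07, and with library 32 left out as well 7 lower and 8 higher with a median of 0.02, so the list has no direction that holds. VARS1, for valine, was lower by -1.17 ± 0.09, and QARS1, for glutamine, was higher by 1.14 ± 0.12. The lower count was 12 without library 32, 4 without library 33, and 2, 3 and 3 without library 19, 20 and 21, and the higher count was 4 without library 32 and 1 without each of 19, 20 and 21. Of their mitochondrial counterparts, 10 of 17 were higher and 4 lower, with a median of 0.51. HARS2, for histidine, was higher by 1.15 ± 0.15. Without library 32 the mitochondrial counts were 10 and 6, and without library 19, 20 or 21 there were 8 higher and 0 lower.

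The genes of mitosis formed the most uniform group. Of 35 tested, 33 were higher and 0 lower in cis SSP -SG (0 lower also at an unadjusted p under 0.05 and by DESeq2), with a median of 1.23 against -0.01 for all genes tested, and 35 of 35 were higher without library 32. KIF20A, a kinesin of cytokinesis, was at 30.7, 30.7 and 31.8 CPM in cis -SG and at 161, 110 and 154 CPM in cis SSP -SG (2.18 ± 0.17, adjusted p = 0.00027). DLGAP5, a spindle protein, was at 29.7, 28.8 and 29.4 CPM against 115, 115 and 109 CPM (1.94 ± 0.09). Neither gene overlapped between groups. CENPA, the centromeric histone, was higher by 1.88 ± 0.13, and PTTG1, securin, by 1.77 ± 0.34. MKI67, the long transcript of the Ki-67 proliferation antigen, was at 183, 178 and 175 CPM in cis -SG and at 616, 151 and 553 CPM in cis SSP -SG. Library 32 alone was below cis -SG, and MKI67 was not called (1.30 ± 0.49, adjusted p = 0.072) but was higher by 1.71 without it. The summed level of the 35 genes was 2741 CPM in cis -SG against 6823, 6029 and 6156 CPM in cis, cis SSP and cis SSP -SG, so cis -SG was the low group of the 4.

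DNA replication genes followed with smaller changes. Of 32 tested, 24 were higher and 0 lower by edgeR, at an unadjusted p under 0.05 or by DESeq2, with a median of 0.62, and 29 were higher and 1 lower without library 32. Without library 19, 14 were higher. RRM2, the inducible subunit of ribonucleotide reductase, was at 143, 149 and 142 CPM against 376, 346 and 377 CPM (1.33 ± 0.09, adjusted p = 0.00019). TK1, the S-phase thymidine kinase, was higher by 1.65 ± 0.24, LIG1, the replicative ligase, by 1.24 ± 0.10, and GINS2, of the replicative helicase, by 1.19 ± 0.24. PCNA, the sliding clamp, was at 257, 254 and 251 CPM and at 252, 400 and 252 CPM, so that apart from library 32 the levels coincided, and it was not called (0.24 ± 0.20). In the list of E2F factors and G1 cyclins, 6 of 19 were higher and 2 lower, and 11 and 6 without library 32. E2F8, a repressor E2F, was higher by 1.25 ± 0.30 and CCNE1, cyclin E1, by 0.69 ± 0.10, while CCND2, the most abundant D-type cyclin here, stood at 1219 CPM in cis -SG and 1231 CPM in cis SSP -SG with 0.01 ± 0.10. Without library 19 or 21 no gene of that list was called lower.

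Promoters of the called cell cycle genes, 250 bases before to 50 after the gene start from RefSeq (GRCh38.p14), were searched on both strands for CCAAT, bound by NF-Y, for TTTGAA, the cell cycle homology region bound by DREAM and B-MYB complexes, and for TTTNNCGC, the E2F motif. Of the 33 mitosis genes called higher, 27 had a promoter in the table. CCAAT was in 22 of the 27 (81.5%) and in 36.4% of 10510 promoters of genes tested and 35.7% of all 27305. TTTGAA was in 18 (66.7%), against 9.39% of genes tested and 15.4% of all. Of 22 DNA replication promoters, 12 (54.5%) held CCAAT. TTTNNCGC was in 3 of the 27 mitosis promoters (11.1%) and in 12 of 22 DNA replication promoters (54.5%), against 10.6% of genes tested and 6.90% of all. The promoter windows of 30 bases below belong to the mitosis and replication genes named above whose motif lies before the gene start. They are written 5′ to 3′ on the gene's strand with the motif in capitals, ATTGG and GCGGGAAA being matches on the other strand, and are shown so that the letters behind these shares can be read in genes of known change. In PTTG1 the CCAAT match overlaps an ATTGG match.
KIF20A, chr5:138179006-138179035, plus strand: ttccttacgcggATTGGtagctgcaggctt
PTTG1, chr5:160421792-160421821, plus strand: tgggcggaagagCCAATtgggccgcgagtt
DLGAP5, chr14:55191706-55191735, minus strand: tctcacccatctTTTGAActggcccttcac
CENPA, chr2:26786026-26786055, plus strand: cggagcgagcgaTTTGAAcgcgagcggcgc
LIG1, chr19:48170440-48170469, minus strand: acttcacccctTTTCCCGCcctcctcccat
GINS2, chr16:85688967-85688996, minus strand: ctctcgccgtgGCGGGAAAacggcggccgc
A match is a description of these letters, and no binding was measured. Other lists were searched too. TGATGNAAN, the amino acid response element, was in 1.62% of promoters of genes tested. It was in 1 of 3 promoters of higher and 1 of 9 of lower ATF4 targets, and in 0 of 2 of higher serine synthesis genes. For cytosolic synthetases it was in 0 of 2 higher and 2 of 4 lower. TCACNCCAC, the sterol response element, was in 0 of 8 promoters of higher and 0 of 4 of lower cholesterol synthesis genes, against 1.04%.

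More p53 targets were lower than higher. Of 24 tested, 15 were lower and 3 higher, with a median of -0.76, and 18 lower and 5 higher without library 32. With the trend over transcript length removed, 15 were lower and 5 higher, and the median was -0.46. CDKN1A, the CDK inhibitor p21, was at 157, 154 and 152 CPM in cis -SG and at 45.3, 56.2 and 43.0 CPM in cis SSP -SG (-1.69 ± 0.13, adjusted p = 0.00024). No library of one group came near the other. EDA2R, a TNF receptor family member, was at 72.8 to 76.3 CPM against 9.02 to 14.7 CPM (-2.57 ± 0.20). RRM2B, the p53-inducible ribonucleotide reductase subunit, was lower by -1.97 ± 0.23, and GADD45A, a growth arrest protein, by -1.93 ± 0.22. DDB2, a DNA damage sensor, was higher by 0.96 ± 0.13, and BAX, a pore-forming death effector, was not called at -0.03 ± 0.24. CDKN1A was at 92.3 CPM in cis and 58.7 CPM in cis SSP in complete medium, where its log2 fold change was -0.63.

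Of the 7 CDK inhibitors, 2 were higher and 2 lower, also without library 32. Shares over all genes tested were 21.6% higher and 23.2% lower, and 37% and 38.5% without library 32. CDKN2A, the locus of p16 and p14ARF, was at 4.10, 4.22 and 4.36 CPM against 15.1, 36.9 and 15.9 CPM, a log2 fold change of 2.41 ± 0.39 that was 1.87 without library 32. CDKN1B, p27, had 0.04 ± 0.12 and no call. In the BCL2 family, 7 of 14 were lower and 3 higher, and 8 and 4 without library 32. BBC3, the p53-induced BH3 protein PUMA, was at 62.1 to 62.7 CPM against 20.5, 46.8 and 23.2 CPM (-1.06 ± 0.31), and BCL2, the founding anti-apoptotic member, was lower by -2.01 ± 0.17. No BCL2 family gene was called higher without library 19, 20 or 21.

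**Figure D4:**
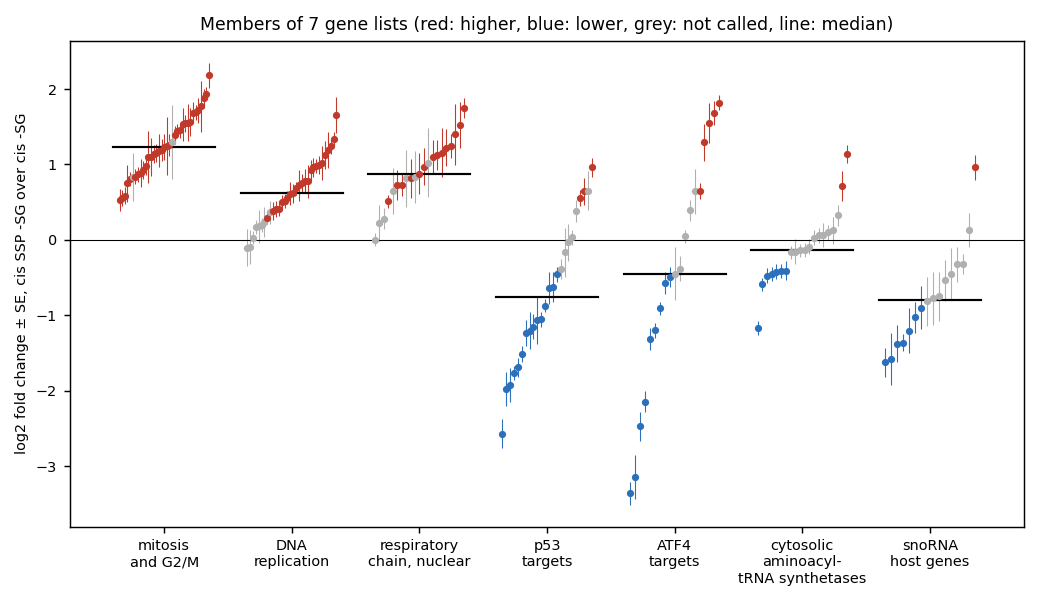
Log2 fold change ± SE of each member tested in 7 gene lists, red for higher, blue for lower and grey for not called, with the list median as a line. All mitosis members lie above 0 and replication members from -0.10 upward, with medians of 1.23 and 0.62, p53 targets have a median of -0.76, and ATF4 targets span -3.36 to 1.82.

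More nuclear genes of energy metabolism were called higher than lower. In the nuclear-encoded respiratory chain, 14 of 21 were higher and 0 lower by edgeR, at an unadjusted p under 0.05 or by DESeq2, with a median of 0.88, and 19 were higher without library 32 with a median of 0.51. ATP5F1B, the catalytic subunit of ATP synthase, was at 430, 436 and 427 CPM in cis -SG and at 1335, 1696 and 1326 CPM in cis SSP -SG (1.74 ± 0.13, adjusted p = 0.00024). COX4I1, of cytochrome c oxidase, was higher by 1.52 ± 0.31. The count was 7, 8 and 8 without library 19, 20 and 21. These transcripts are short, and library 32 carried a summed level of 7158 CPM for the list against 4823 and 4784 CPM in libraries 31 and 33 and 2600 to 2658 CPM in cis -SG. Of the 13 transcripts encoded in mitochondrial DNA, whose reads cannot be told apart from nuclear copies here, 1 was higher and 1 lower, also without library 32.

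In the TCA cycle and glutamine list, 17 of 26 were higher and 4 lower, with a median of 0.55, and 20 and 5 without library 32. PC, pyruvate carboxylase, was at 5.15, 5.75 and 5.46 CPM against 21.7, 20.8 and 20.1 CPM (1.93 ± 0.10), with library 32 between the others. FH, fumarase, was higher by 1.35 ± 0.12, and IDH2, mitochondrial isocitrate dehydrogenase, by 1.30 ± 0.14, whereas cytosolic IDH1 was lower by -0.43 ± 0.10. In glycolysis, 12 of 19 were higher and 2 lower, and 14 and 5 without library 32. LDHA, lactate dehydrogenase A, was at 600, 633 and 614 CPM against 1192, 1300 and 1155 CPM (0.97 ± 0.10), while the glucose transporter SLC2A3 was lower by -2.03 ± 0.10. Without library 19, 20 and 21 the higher counts were 9, 9 and 9 for the TCA list and 6, 7 and 7 for glycolysis. LDHA was at 1391 CPM in cis in complete medium, so the low level was that of cis -SG.

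Sterol and fatty acid synthesis genes were mixed. Of 23 cholesterol synthesis genes, 11 were higher and 5 lower, and 15 and 5 without library 32. INSIG1, the sterol sensor that retains SREBP, was at 20.2, 21.1 and 19.8 CPM against 37.3, 45.3 and 36.2 CPM (0.95 ± 0.12), below its 104 CPM in cis in complete medium. STARD4, a sterol carrier, was at 228, 230 and 224 CPM against 26.4, 19.1 and 23.6 CPM (-3.31 ± 0.15, adjusted p = 5.3e-05), and SQLE, squalene epoxidase, was lower by -0.69 ± 0.09. The higher count was 7, 7 and 6 without library 19, 20 and 21. Of 12 fatty acid synthesis genes, 4 were higher and 2 lower, with FADS2, a desaturase, at 1.82 ± 0.09 and ELOVL4, an elongase, at -2.92 ± 0.10, and without library 32 there were 9 higher and 2 lower.

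HMOX1, heme oxygenase and a target of NRF2 and ATF4, was at 310, 325 and 317 CPM in cis -SG and at 60.3, 81.6 and 60.8 CPM in cis SSP -SG (-2.24 ± 0.15, adjusted p = 0.00017). Other NRF2 and glutathione genes went both ways, with 6 of 16 higher and 4 lower. TKT, of the pentose phosphate pathway, was higher by 0.91 ± 0.10, and GCLM, of glutathione synthesis, lower by -0.97 ± 0.10. Without library 32 this list counted 11 and 6, and without library 19, 20 or 21 it counted 3 higher. JUN, an AP-1 subunit, was at 42.6 to 44.2 CPM against 6.07 to 8.16 CPM (-2.62 ± 0.13), 1 of 6 immediate-early genes of 12 that were lower, and FOS, its partner, was the 1 that was higher (1.85 ± 0.12). Without library 32 this list had 2 higher and 9 lower. MYC was at 491, 494 and 487 CPM against 211, 214 and 224 CPM (-1.19 ± 0.09), with a narrow spread that included library 32. In the NF-kB list, 4 of 8 were lower and 0 higher (0 also at an unadjusted p under 0.05 and by DESeq2), among them BIRC3, an inhibitor of apoptosis, at -2.54 ± 0.23, and 7 were lower without library 32.

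Host genes of small nucleolar RNAs, spliced transcripts that nonsense-mediated decay removes when translated, were called lower more often than higher. Of 16 tested, 7 were lower and 1 higher, with a median of -0.80, and 15 lower and 1 higher without library 32 with a median of -1.30. GAS5 was at 903, 921 and 928 CPM in cis -SG and at 287, 499 and 279 CPM in cis SSP -SG (-1.38 ± 0.24), against 312 CPM in cis in complete medium. Library 32 was above its partners and below every cis -SG library. The count was 4 without library 19. Cytosolic ribosomal proteins, short transcripts with many processed copies in the genome, gave 6 higher and 2 lower of 76 and a median of 0.31, and without library 32 the sign turned, with 22 higher, 41 lower and a median of -0.10. Their share of reads was 8.10% in library 32 and 4.54% to 4.55% in libraries 31 and 33, so no direction is given for them.

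Chaperones and sensors of the endoplasmic reticulum split. Of 18, 7 were higher and 6 lower, and 9 and 9 without library 32. CALR, calreticulin, was higher by 1.18 ± 0.09 and PDIA6, a disulfide isomerase, by 1.11 ± 0.10, whereas the sensors ERN1 and ATF6 were lower by -1.74 ± 0.25 and -1.28 ± 0.18. In autophagy and lysosome genes, 4 of 22 were higher and 5 lower, and 8 and 11 without library 32. Over all genes tested the shares were 21.6% higher and 23.2% lower, and 37% and 38.5% without library 32. CTSD, a lysosomal protease, was higher by 1.31 ± 0.30, and SQSTM1, the p62 cargo receptor, lower by -0.91 ± 0.11. In the hypoxia list, 1 of 7 was higher and 4 lower, and 2 and 4 without library 32, among the lower ones VEGFA, an angiogenic factor, at -1.13 ± 0.09. EPAS1, the hypoxia factor HIF-2 alpha, was at 15.2 to 17.4 CPM in cis -SG, below 1 CPM in every cis SSP -SG library and at 0.353 CPM in cis in complete medium.

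PARP1, the main poly(ADP-ribose) polymerase and a consumer of NAD, was at 381, 393 and 387 CPM in cis -SG and at 627, 587 and 624 CPM in cis SSP -SG. The groups did not overlap, and the log2 fold change was 0.65 ± 0.09 (adjusted p = 0.0022) and 0.69 ± 0.03 without library 32. In complete medium cis and cis SSP were at 637 and 635 CPM, so the group that differed was cis -SG, and the difference between media was called (0.64, adjusted p = 0.0019). Across 24 NAD and PARP genes, 5 were higher and 9 lower, and 7 and 15 without library 32. SIRT3, a mitochondrial deacetylase, was higher by 0.84 ± 0.17, and PARP2 was lower by -0.63 ± 0.09. NMNAT2, a cytosolic NAD synthase of neurons, was at 67.8 to 68.6 CPM in cis -SG and at 0.167 to 0.408 CPM in cis SSP -SG (-7.75 ± 0.22). Without library 19, 20, 21 or 33, 4 genes of the list were lower, and without library 31 there were 5.

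In the Fanconi and homologous recombination list, 8 of 23 were higher and 1 lower, and 15 and 3 without library 32. FANCG, of the Fanconi core complex, was higher by 0.80 ± 0.13, and BRCA1 was not called at 0.01 ± 0.23. Without library 19, 20 and 21 the higher counts were 4, 3 and 3. Of 8 platinum transport genes, 1 was higher and 2 lower, and 1 and 4 without library 32. ABCC2, an efflux pump for conjugates, was at 3.36, 2.79 and 3.83 CPM against 15.2, 6.66 and 15.7 CPM (1.91 ± 0.35). ABCG2, another efflux pump, was lower by -3.13 ± 0.15, and SLC31A1, the copper carrier that also admits cisplatin, was at 222 to 232 CPM against 144, 96.2 and 140 CPM (-0.84 ± 0.17). Of 8 metallothioneins, 2 were tested and 0 called by edgeR, with 1 higher at an unadjusted p under 0.05 and 1 higher by DESeq2, both had their highest level in library 32, and without it 1 was called higher and 1 lower.

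Some transcripts were abundant in one group and close to absent from the other. TNFRSF19, a TNF receptor family member induced by Wnt signalling, was at 334, 345 and 332 CPM in cis -SG and at 0.153, 0.143 and 0.557 CPM in cis SSP -SG (-10.15 ± 0.37, adjusted p = 3.2e-05). DKK1, a secreted Wnt antagonist, was at 312, 308 and 300 CPM against 0.357, 0.430 and 0.111 CPM (-10.01 ± 0.29). COL12A1, a fibril-associated collagen, was at 1069, 1004 and 942 CPM against 5.66, 1.43 and 5.91 CPM (-7.84 ± 0.54). In complete medium TNFRSF19 was at 561 CPM in cis and 0.218 CPM in cis SSP, DKK1 at 460 and 0.660 CPM, and COL12A1 at 1330 and 4.83 CPM. The other 9 genes with the largest decreases were PRKG1, MAP7D2, PTGER3, SLC4A4, UCHL1, FILIP1, KHDRBS3, NMNAT2 and INA, with log2 fold changes from -10.11 to -7.60. They include the neuronal proteins UCHL1, INA and NMNAT2, the cGMP-dependent kinase PRKG1 and the prostaglandin receptor PTGER3.

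On the higher side, PDGFRA, the receptor for platelet-derived growth factor, was at 7.04, 6.08 and 5.30 CPM in cis -SG and at 382, 235 and 374 CPM in cis SSP -SG (5.74 ± 0.27, adjusted p = 6.1e-05). DCN, the matrix proteoglycan decorin, was at 0.109 to 0.368 CPM against 21.98, 26.93 and 23.74 CPM (6.37 ± 0.29). DHRS2, a mitochondrial reductase, was at 0.931 to 1.21 CPM against 73.7, 93.0 and 74.1 CPM (6.24 ± 0.18). FGF20, a fibroblast growth factor, had 0 reads in each cis -SG library and 121, 87 and 98 reads in cis SSP -SG, which is at least 106-fold higher against a floor of 3 counts over the group. The other 8 were DAZL, OLFML1, DMP1, TEK, RNLS, RAB17, SPP1 and ATRNL1, with log2 fold changes from 5.04 to 5.99. SPP1 encodes osteopontin, DMP1 a matrix protein of mineralised tissue, TEK the angiopoietin receptor and DAZL a germ cell RNA-binding protein.

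By the rule of at most 3 reads in every library of one group and at least 50 on average in the other, 21 protein-coding genes were present in cis -SG alone and 4 in cis SSP -SG alone. PRKG1 had 1424, 1344 and 1278 reads in cis -SG and 0, 1 and 2 in cis SSP -SG, a ratio of 1302 (95% interval 445 to 6318, for counting error only). UCHL1, a neuronal ubiquitin hydrolase, had 475, 391 and 440 reads against 2, 1 and 0. In the other direction, LUM, the matrix proteoglycan lumican, had 108, 81 and 88 reads in cis SSP -SG against 2, 0 and 3. OLFML3 had 100, 52 and 87 against 1, 2 and 2, and SKAP1, an adaptor protein of immune cells, had 70, 58 and 40 against 1, 0 and 1.

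Some of these genes are markers of fibroblasts. Of 7 fibroblast markers, 6 were tested, 5 were higher and 1 lower, and the summed level was 42.0 to 44.4 CPM in cis -SG and 381 to 513 CPM in cis SSP -SG. THY1 was already at 32.6 CPM in cis -SG and was higher by 1.65 ± 0.10. FAP was at 0 and ACTA2 at 1.04 CPM in cis SSP -SG, and of the endothelial markers CDH5 stood at 0.0170 CPM, VWF at 0.0541 CPM and TEK at 10.9 CPM there. The part of other cells in these levels was not tested. The untreated parental A2780 libraries carried PDGFRA at 306 CPM, FGF20 at 30.4 CPM and DKK1 at 212 CPM, but DCN at 0.492 CPM.

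Adhesion, matrix and signalling lists were split between large changes in a few genes. For comparison, 21.6% of all genes tested were higher and 23.2% lower, and 37% and 38.5% without library 32. CDH2, N-cadherin, was at 107, 102 and 98.9 CPM against 1398, 953 and 1403 CPM (3.60 ± 0.19), and 12.7 CPM in cis in complete medium. In the epithelial-mesenchymal list, 3 of 8 were higher and 2 lower, and 3 and 4 without library 32. Of 13 collagens, 5 were higher and 3 lower, and 8 and 4 without library 32. COL3A1, a fibrillar collagen, was at 806, 829 and 796 CPM against 3015, 2384 and 3048 CPM (1.79 ± 0.13), and COL4A1, of basement membranes, was higher by 4.04 ± 0.26. In the TGF-beta and activin list, 3 of 20 were higher and 6 lower, and 8 and 10 without library 32. TGFBR2, the type II receptor, was at 19.3 to 19.9 CPM against 291, 176 and 292 CPM (3.69 ± 0.23). In the Wnt list, 4 of 18 were higher and 6 lower, and 8 and 7 without library 32, with the ligand WNT5B higher by 3.18 ± 0.23 and the receptor FZD3 lower by -3.47 ± 0.17. Of 13 interferon-stimulated genes, 2 were higher and 5 lower, and 3 and 5 without library 32, with the largest decrease in IFIT1, a sensor of viral RNA, at 178 to 180 CPM against 11.2, 14.4 and 10.9 CPM (-3.89 ± 0.14).

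The remaining lists had calls in both directions. Beside them, 21.6% of all genes tested were higher and 23.2% lower, and 37% and 38.5% without library 32. Sphingolipid and phosphatidylserine synthesis, which uses serine as a substrate, had 2 of 15 higher and 4 lower, and 3 and 10 without library 32. SPTLC1, of serine palmitoyltransferase, was lower by -0.75 ± 0.10. Purine and pyrimidine synthesis had 1 of 14 higher and 3 lower, and 5 and 7 without library 32, with PAICS of purine synthesis at 0.30 ± 0.09 and CTPS1, which makes CTP, at -0.50 ± 0.09. Antigen presentation had 1 of 8 higher and 1 lower, and MYC with the MXD network had 1 of 10 higher and 4 lower. Those 2 lists counted 3 and 4, and 2 and 6, without library 32. Small counts moved with other libraries too: without library 19, 20 or 21 no gene of the purine, antigen presentation, MYC or hypoxia lists was called higher, 2 sphingolipid genes were lower, and 1 CDK inhibitor was lower. Without library 19 the counts were 4 higher for ER genes, 3 lower for TGF-beta genes and 2 lower for NRF2 genes, and without library 20 there were 2 higher autophagy genes.

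**Figure D5:**
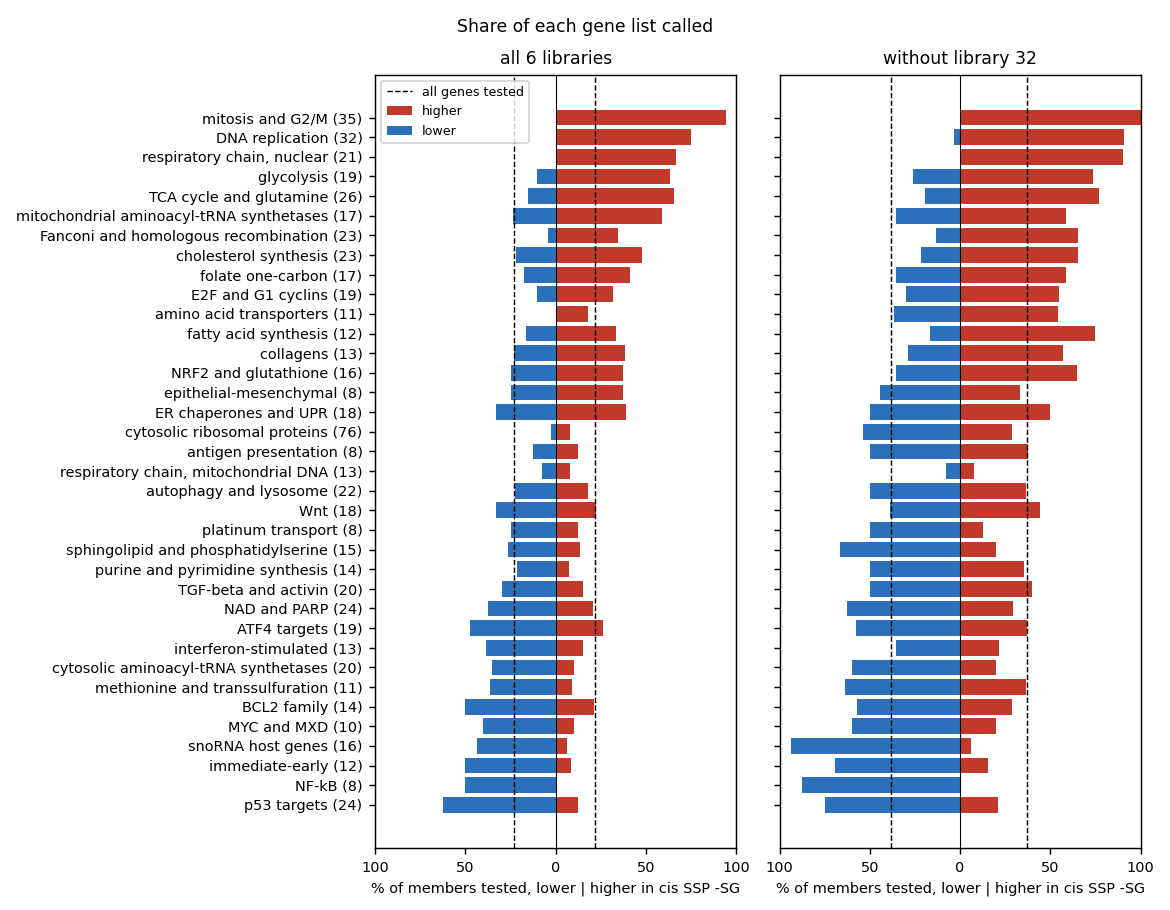
Share of the members tested that were called higher (red, right of 0) or lower (blue, left of 0) in cis SSP -SG for each gene list of at least 8 members tested, with all 6 libraries (left panel) and without library 32 (right panel). Dashed lines give the shares over all genes tested, 21.6% and 23.2% on the left and 37% and 38.5% on the right, and mitosis and p53 targets lie at the ends of the order in the left panel.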

How the data were processed

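Poly(A) RNA was sequenced from 12 conditions with 3 libraries each. The authors aligned the reads to GRCh37.p13 with STAR and counted exonic reads per GENCODE 19 gene with HTSeq. The deposited values are whole-number counts, not normalized. Strand setting and treatment of multiply mapped reads are not given in the sources used here, so antisense and near-identical genes cannot be separated. The 3 rows that name no gene were left out, among them 4.21% to 7.95% of reads on no feature. Symbols and coordinates came from the GENCODE 44 annotation lifted to GRCh37.

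The 6 libraries of cis -SG and cis SSP -SG were compared with edgeR 4.0.16 (filterByExpr, TMM, quasi-likelihood test, Benjamini-Hochberg adjustment over all genes tested). CPM used TMM factors over 36 libraries. The difference between media was the interaction of line and medium in 12 libraries. Counts were simulated with a common dispersion of 0.0345. Of 200 genes changed by a factor of 2, 133 were recovered among 14107 genes, with 7 false calls. Of 200 changed by 1.5, 5 were recovered among 14116 genes, with 0 false calls. In the data the SD of the log2 difference was 0.68 between libraries 31 and 32 and 0.11 between 31 and 33. A common dispersion does not reproduce this uneven spread, so recovery under it was not tested. Members and lists were chosen with earlier results of these data known. Named were the study's genes, at most 4 called members per list and direction of at least 5 CPM, at most 2 uncalled ones, the 12 largest changes per direction where the 6 libraries averaged 50 counts or more, and genes with at most 3 reads in one group. UHRF1, ACACA, RPL40, LHX1 and PECAM1 were not matched. Results for some genes are not reported here.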

Additional observations from a re-analysis of the deposited data

Results flagged for a closer look

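The change from cis to cis SSP was set against the same change in complete medium by the interaction term of edgeR's quasi-likelihood test over 12 libraries. Of the 128 genes named by the rule, 61 had a called difference between media, and 60 of these were also called without libraries 25 and 32. Over all genes tested the difference was called for 17.1%, and for 8341 of 15057 without libraries 25 and 32. Most named genes were chosen by their change without serine and glycine, which is part of this difference, so their share is raised by the choice. Each value below is the log2 fold change without serine and glycine minus that in complete medium. Among serine, transport and one-carbon genes, the difference was 1.21 for PSAT1, 0.87 for SLC1A5, 0.70 for SFXN1, 1.02 for SHMT2, 0.70 for SHMT1, 0.74 for MTHFD2, 0.42 for GLDC, 0.67 for AHCY and 0.41 for PAICS. SLC1A5 had a log2 fold change of 0.42 without serine and glycine and -0.44 in complete medium. Of ATF4 targets, it was positive at 1.49 for INHBE, 1.38 for VLDLR, 1.01 for PCK2 and 0.81 for ASNS, and negative at -1.69 for GDF15, -1.50 for PPP1R15A and -1.31 for ATF3. Cell cycle genes had positive differences of 2.31 for KIF20A, 2.14 for DLGAP5, 1.60 for CENPA, 1.24 for E2F8, 0.88 for RRM2 and 0.59 for LIG1, and the DNA repair genes FANCG and PARP1 had 0.83 and 0.64. KIF20A had -0.12 and DLGAP5 -0.20 in complete medium. For p53 targets it was -1.67 for GADD45A, -1.63 for EDA2R, -1.05 for CDKN1A and 0.73 for DDB2. In metabolism it was 1.75 for INSIG1, 1.21 for IDH2, 1.16 for TKT, 1.10 for LDHA, 1.03 for FADS2, 0.92 for PC, 0.90 for SQLE and -0.59 for SLC2A3. Stress, chaperone and signalling genes had -2.63 for HMOX1, -2.02 for JUN, -1.46 for GAS5, -1.15 for ERN1, -0.96 for BIRC3, -0.78 for ATF6, -0.69 for SQSTM1, -0.48 for VEGFA, -0.36 for MYC, 1.14 for PDIA6 and 1.07 for CALR. HMOX1 had 0.39 in complete medium. EPAS1, too low in complete medium for a test there, had -4.91. The efflux pumps had -2.26 for ABCC2 and -1.83 for ABCG2. Matrix and adhesion genes had 2.86 for LUM, 1.77 for COL3A1, 1.10 for THY1, -2.97 for COL4A1 and -2.78 for CDH2. Of the genes with the largest changes, it was 2.18 for RAB17, 1.59 for PDGFRA, -1.33 for DHRS2, -1.64 for OLFML1 and -2.77 for TEK. The differences of TEK, LUM, DHRS2 and OLFML1 rest on low levels in cis, and each had positive log2 fold changes in both media. In cis and cis -SG, TEK was at 0.0180 and 0.250 CPM and LUM at 0.624 and 0.0875 CPM. DHRS2 was at 0.304 and 1.05 CPM there, and OLFML1 at 0.339 and 1.03 CPM. TEK had 5.40 without serine and glycine and 8.17 in complete medium. MAP7D2 had -3.84 with adjusted p = 0.019, with levels at or near 0 in cis SSP in both media, and was the gene not called without libraries 25 and 32 (adjusted p = 0.15).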

How the results depend on the processing

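No paired analysis was possible because the labels number the libraries 1 to 36 and give no replicate number within a condition. Leaving out each library in turn gave 4011 to 11125 genes called, 1820 to 5451 higher and 2191 to 5674 lower. It gave log2 fold changes of 0.38 to 0.48 for SLC1A5, -0.35 to -0.18 for SLC1A4 and 0.18 to 0.34 for PSPH. Over the same fits, 14 to 29 DNA replication genes were higher and 0 to 1 lower, 1 to 4 cytosolic synthetases were higher and 2 to 12 lower, and 2 to 5 p53 targets were higher. One fit over 36 libraries called 9814 genes, 5285 of them higher, with SLC1A4 at -0.22 and PSPH at 0.33, both called, and 8 ATF4 targets, 4 synthetases and 5 p53 targets higher. DESeq2 without library 32 called 4811 genes higher, SLC1A4 at -0.16, PSPH at 0.20, 4 synthetases and 5 p53 targets higher. Removing the trend over transcript length moved the median of all genes from -0.01 to 0.11 and gave 4 synthetases and 5 p53 targets higher. With library 32 left out as well, an alternative chosen after seeing the data like the other fits of DESeq2 without library 32 and of protein-coding genes alone, 11006 genes were called, 6275 higher, with PSPH at 0.20, 8 ATF4 targets, 8 synthetases and 5 p53 targets higher and 2 replication genes lower. Without a filter on low counts, 4 synthetases were lower. The line by medium difference was called for 8341 genes without libraries 25 and 32. Of 2025 values of named genes under these alternatives, 1926 kept their direction and their side of the threshold, and 20 values changed sign, in 6 genes not called with all libraries. With the length trend removed, and with library 32 left out as well, the log2 fold change of SLC1A4 was 0.017 and 0.0087 and the log2 fold change of PCNA was -0.021 and -0.063. With total counts, and with at least 10 counts in every library, the log2 fold change of CCND2 was -0.068 and -0.011 and the log2 fold change of BRCA1 was -0.060 and -0.010. The log2 fold change of CDKN1B was -0.035 with total counts and -0.039 by DESeq2 without library 32, and the log2 fold change of BAX was 0.038 in the fit over 36 libraries. Leaving out each library gave ranges of -0.017 to 0.40 for PCNA, -0.017 to 0.055 for CCND2, -0.061 to 0.13 for CDKN1B, -0.36 to 0.14 for BAX and -0.14 to 0.24 for BRCA1. The causes were not tested.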

Other observations

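Genes of chromosome 8 were lower in cis SSP -SG more often than higher. Of 406 protein-coding genes of at least 1 CPM tested there, 177 were lower and 50 higher, with a median log2 fold change of -0.42, which was -0.45 without library 32 and -0.40 in complete medium. Over all 11606 such genes, 2584 were lower and 2630 higher, with a median of 0.02. Chromosome 18 had 62 of 159 lower and 17 higher. Its median was -0.22, with -0.13 without library 32 and -0.19 in complete medium. On chromosome 19, 267 of 894 were higher and 117 lower, with a median of 0.24 that was 0.10 without library 32.

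Among genes at or below 1 CPM in every cis library in complete medium and at 20 CPM or more in cis SSP -SG, 11 met the rule, and cis -SG carried them at a median of 5.59% of their cis SSP -SG level, with a range of 1.30% to 9.64%. The median was 0.927% in cis in complete medium. In the other direction, cis SSP -SG carried 15 genes of cis at a median of 1.01% of their level, with a range of 0.0844% to 5.99%. COL4A1, a basement membrane collagen, was at 0.571 CPM in cis, 4.21 CPM in cis -SG and 69.8 CPM in cis SSP -SG, and MEGF10, a phagocytic receptor, at 0.590, 3.20 and 33.2 CPM. These genes were selected by their levels in the libraries compared, so the percentages are descriptions with no test.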
